A study of Etheostoma caeruleum with 31 samples.

Results

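The comparison covers the testis of the rainbow darter (Etheostoma caeruleum), a small fish of North American streams, in adult males after spawning against the testis during spawning. Its members are the 6 arrays whose titles place them in the post-spawning stage, from fish caught in August 2011, and the 7 arrays placed in the spawning stage, from fish caught in May 2011. They make up 13 of the 31 arrays of the series, and no array of another stage entered any value below. All of the fish were wild, reproductively mature males from an area of the Grand River (Ontario, Canada) that the labels describe as clean, and no treatment is named. They were caught with a backpack electrofisher. Each array holds Cy3-labelled total RNA of the testis of a biological replicate.

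Several features limit what these groups can stand for. Each stage was represented by the fish of a single calendar month in 1 area, so that reproductive state and calendar month cannot be told apart. The labels do not give body size, gonad weight or the histology of single fish. The arrays measured RNA of whole testis tissue, in which a change in the number of cells of a type and in RNA per cell cannot be told apart. Signals were scaled within each array, so that a rise of a transcript and a loss of other transcripts cannot be told apart either. The files used here carry probe identifiers that are not paired with genes, so that the tissue could not be checked against marker genes and the changes are described by probe.

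As background, the testis of a seasonally breeding fish is rebuilt every year. Germ cells divide, pass through meiosis and mature into sperm with the support of Sertoli cells, which form cysts around them. Leydig cells, in the tissue outside the compartments that hold the cysts, make androgens. At spawning the lumen holds ripe sperm. After spawning the testis regresses, remaining sperm are resorbed, and spermatogonia and somatic cells make up more of the tissue until germ cell division resumes. The comparison of May with August asks which transcripts differ in relative abundance between the testis of spawning and of post-spawning fish.

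The 13 arrays were of similar brightness. The 75th percentile of the spot intensity lay between 2734 and 4461 units on the spawning arrays and between 2961 and 4657 on the post-spawning arrays, and it did not differ beyond the spread between arrays (exact two-sided permutation test, adjusted p = 0.604 over 6 array-level measures). The share of the 9041 probes that stood well above background ran from 77.98% to 92.57% on the spawning arrays and from 87% to 95.76% on the post-spawning arrays (adjusted p = 0.449 in the same exact test). The Agilent spike-in probes, which measure RNA added in known amounts, had a median log2 signal of -3.64 ± 0.37 (SD, n = 7) relative to the 75th percentile for the spawning fish and -3.46 ± 0.42 (n = 6) for the fish caught later (adjusted p = 0.507, exact permutation test). For arrays, the number of fish sets the precision.

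The testes of the 2 stages were clearly apart in every fish. Each array was projected on the difference between the stage means of the other arrays, on a scale where 0 is the spawning mean and 1 the post-spawning mean. The 7 spawning fish lay between -0.03 and 0.10 on this scale. Of the 6 post-spawning fish, 5 lay between 0.99 and 1.08, and post-spawning replicate 2 lay at 0.84. No fish took an intermediate place, although replicate 2 stood nearer to the spawning testis than the other post-spawning fish. The root mean square difference between 2 arrays over 8232 probes was 1.78 on the log2 scale in the median of 42 pairs of fish from different stages. It was 0.63 in the median of 21 pairs of spawning fish and 0.59 in that of 15 pairs of post-spawning fish. The closest pair from different stages, at 1.45, was farther apart than the most distant pair within a stage, at 0.84.

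**Figure D1:**
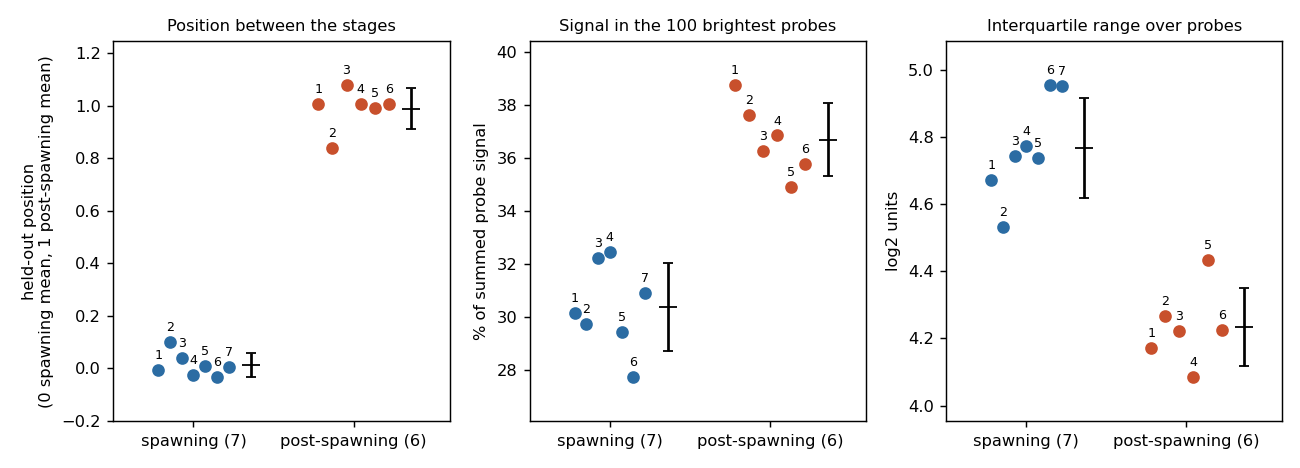
Array-level measures for each of the 7 spawning (blue) and 6 post-spawning (red) arrays, numbered by replicate, with the mean and SD beside them. Left, position between the stage means of the other arrays (no unit); centre, the 100 brightest probes' share of the summed signal in percent; right, the interquartile range of the log2 signal over probes. The stages do not overlap in any panel, and post-spawning replicate 2 lies at 0.84 in the left one.

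The distribution of the signal over probes also differed. In post-spawning testis the 100 brightest probes of an array held 36.7 ± 1.36% (SD, n = 6) of the summed signal, against 30.4 ± 1.65% (n = 7) in spawning testis. All 6 post-spawning arrays, at 34.92% or more, were above all 7 spawning arrays, at 32.47% or less (exact two-sided permutation test, p = 0.000583, the smallest that 1716 splits can give, adjusted p = 0.00175). The effective number of probes, the exponential of the entropy of the signal shares, was 1363 ± 61.7 (n = 6) after spawning and 1535 ± 68.2 (n = 7) at spawning (adjusted p = 0.00233, exact permutation test). The probe signal was thus held by fewer probes after spawning. The interquartile range of the log2 signal was 4.23 ± 0.12 (n = 6) after spawning and 4.77 ± 0.15 (n = 7) at spawning, again with no overlap (adjusted p = 0.00175, exact permutation test). The middle of the probes was thus closer together in level after spawning. The size of this difference depended on the background correction. It was -0.53 as reported and -0.32 with the normexp correction (offset 50, adjusted p = 0.00175, exact permutation test).

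Most of the measured probes changed after spawning. Signals are given as log2 of the intensity relative to the 75th percentile of the array, and a probe is called when limma's moderated test gives a Benjamini-Hochberg adjusted p under 0.05. Of 8250 probes tested, 6318 (76.6%) were called. Among them 3949 (47.9% of those tested) were higher and 2369 (28.7%) were lower in post-spawning testis. The remaining 1932 did not pass. The median called rise was 1.16 and the median called fall was -1.15 on the log2 scale. The median over all tested probes was 0.32 higher after spawning. With arrays centred on their median this shift was 0.14 and the calls were 3514 higher and 2743 lower, and with quantile normalisation the shift was 0.12 and the calls were 3464 higher and 2885 lower. Rises therefore outnumbered falls under each of these scales, by a margin that the scale sets in part.

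Leaving out 1 array at a time left between 6194 and 6316 calls, and no called probe changed direction in any of the 13 repeats. The probes were called on these same arrays, which largely fixes their direction when 1 is left out, so that this is no separate support. With quantile normalisation 5678 of the 6318 calls were kept and 6 were called in the opposite direction, and with spike-in scaling 4787 were kept and 0 were opposite. In the authors' deposited values, which covered 8233 of the 8250 tested probes, 5776 were kept and 1 was opposite. Those values rank the spots of an array almost exactly as the scanner intensity does, so that they are another scaling of the same signal. Without post-spawning replicate 2, the fish nearest to spawning testis, 6267 probes were called. The arrays lay on 4 slides, each with fish of both stages. When a slide was left out and calls were made on the rest, 96.9%, 98.3%, 97.2% and 98.9% of those calls moved the same way on slides 1 to 4, respectively. Repeat spots of an array differed less than the arrays of a stage did. Each fish had its own array, so that the SD between fish also holds differences between arrays. For 5787 tested probes with 2 spots per array, the median SD between the spots of an array was 0.08 on the log2 scale, against 0.25 between fish of a stage. The 4470 called probes among them moved in the same direction on both spots. The calls were made on the mean of these spots, so that this is not independent of them.

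For most of the called probes, the signals of the 2 stages did not overlap at all. All 6 post-spawning fish were above all 7 spawning fish for 3003 probes (36.4% of those tested), and all were below them for 1734 (21%). These 4737 probes (57.4%) were all called, and the other 1581 called probes overlapped in at least 1 fish. The gap between the nearest fish of the 2 stages was at least 2-fold for 944 rising (11.4% of those tested) and 753 falling probes (9.13%). It was at least 8-fold for 63 rising (0.764%) and 148 falling probes (1.79%).

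**Figure D2:**
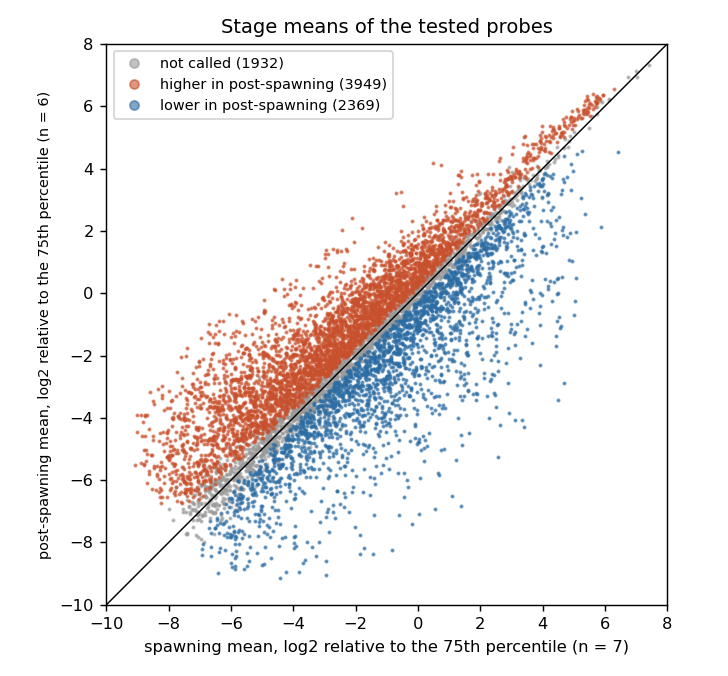
Mean log2 signal, with the 75th percentile of the array at 0, of each of the 8250 tested probes in spawning (horizontal, n = 7) and post-spawning testis (vertical, n = 6), with equality as a line. Called probes fill both sides, 3949 above and 2369 below, and falls extend farther from the line than rises.

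Rises outnumbered falls among changes of 2-fold or more, and falls outnumbered rises from 16-fold on, with 173 against 124. Of the called probes, 2284 rose at least 2-fold (27.7% of those tested) and 1343 fell at least 2-fold (16.3%). At 8-fold or more the numbers were 345 and 323, at 32-fold they were 22 and 70, and at 64-fold 0 probes rose and 30 fell. An estimated fold of 2 does not show that the change itself was beyond 2-fold. A test against that size, limma's treat, called 2527 probes (30.6%), of which 1545 rose (18.7%) and 982 fell (11.9%).

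The levels of the probes with large changes are given as a description, since choosing probes by a large rise or fall itself lowers or raises their spawning level. The 345 probes that rose at least 8-fold had a median signal of -6.35 in spawning testis and reached -2.38 after spawning. The 323 that fell at least 8-fold started from a median of 0.59, which is above the 75th percentile of the array, and ended at -3.70. Among the 6806 probes that were well above background on all 13 arrays, 101 rose and 248 fell at least 8-fold, and 0 rose and 48 fell at least 32-fold. Among these well measured probes falls outnumbered rises from 4-fold on, with 529 against 413. A probe that was below background in either stage could not enter this count.

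**Figure D3:**
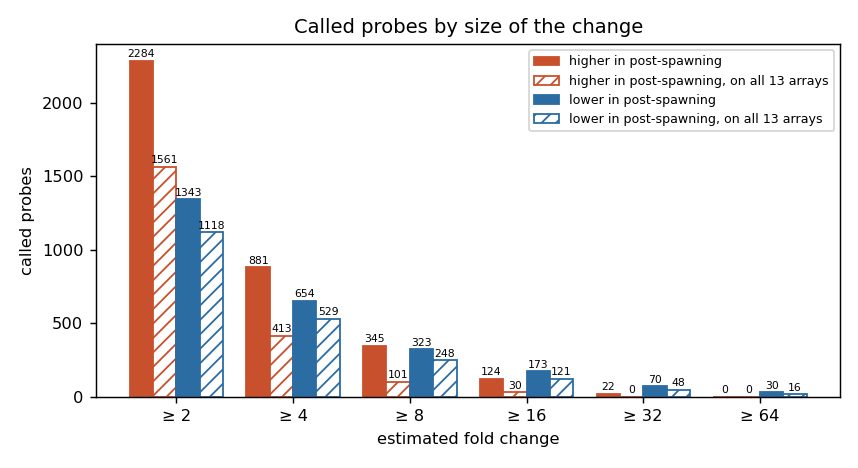
Number of called probes (vertical) at or past each estimated fold change (horizontal) that were higher (red) or lower (blue) in post-spawning testis, for all tested probes (filled) and for probes well above background on all 13 arrays (hatched). Among all tested probes rises lead at 2-fold, with 2284 against 1343, and falls lead from 16-fold on. Among the hatched ones falls lead from 4-fold on, with 529 against 413.

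Some transcripts were measured in one stage and not in the other. A group of 31 probes exceeded background clearly in each of the 6 post-spawning fish and in none of the 7 spawning fish. Their signal after spawning was higher by at least 2.61-fold to at least 27.3-fold, with a median of at least 9.37-fold. Another 15 probes were well above background on all 7 spawning arrays and on no post-spawning array, and were lower after spawning by at least 5.04-fold to at least 123-fold, with a median of at least 17.4-fold. These folds set the mean of the bright stage against the dimmest signal that counted as well above background on each array of the dim stage, or the probe's own signal where that was higher. Limma also called all of these probes. They were chosen for a difference between the stages on the same arrays, so that this is no separate support. A further 149 probes were not well above background on any of the 13 arrays.

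The clearest rises and falls are shown by 4 probes, the pair with the widest gap between the stages in each direction among the called probes that were well above background on all 13 arrays. Probe GT_EA516_un_as_sp_15888, measured by 1 spot, rose. Its intensity was 93.5 units on the lowest, 192 on the median and 266 on the highest spawning array, and 2821, 4163 and 6137 on the corresponding post-spawning arrays. The dimmest post-spawning fish was 15.0-fold above the brightest spawning fish on the scaled signal. The mean log2 signal went from -4.31 ± 0.29 (SD, n = 7) to 0.13 ± 0.22 (n = 6), a change of 4.45 ± 0.14 (SE, adjusted p = 5.28e-11 in limma), or 21.8-fold. Within the 4 slides the change ran from 4.20 to 4.57.

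Probe GT_EA516_an_s_sp_167, measured by 2 spots, also rose. Its intensity was 106, 151 and 194 units on the lowest, median and highest spawning array and 2075, 4131 and 6432 units on the post-spawning arrays. The stages were again well apart, and post-spawning replicate 2 was the dimmest of the 6 fish, with a log2 signal of -0.56 against -0.10 or more in the others. The mean moved from -4.60 ± 0.29 (n = 7) to 0.11 ± 0.39 (n = 6), a log2 change of 4.71 ± 0.18 (SE, adjusted p = 7.95e-11 in limma).

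Probe GT_EA516_an_s_sp_3339 fell from among the bright signals of the array to a low one. Its intensity was 51440 units on the lowest, 89425 on the median and 127240 on the highest spawning array. After spawning it was 225 on the lowest, 504 on the median and 1178 on the highest array. The mean log2 signal was 4.69 ± 0.38 (n = 7) at spawning and -2.89 ± 0.99 (n = 6) after it, a change of -7.58 ± 0.37 (SE, adjusted p = 4.61e-10 in limma), which is a 191-fold fall. The fish differed in how far it fell, since post-spawning replicate 2 kept a log2 signal of -1.37 and replicate 4 had -3.96. Within slides the change ran from -8.65 on slide 1 to -5.79 on slide 3, the slide with post-spawning replicate 2.

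Probe GT_EA516_an_s_xh_3325 also fell. Its spawning intensities had a low of 22695, a median of 39036 and a high of 50566 units, and its post-spawning intensities a low of 110, a median of 173 and a high of 563. The highest post-spawning fish was again replicate 2, at a log2 signal of -2.44, while the other 5 fish lay between -5.09 and -4.33. The mean changed by -7.71 ± 0.35 (SE, adjusted p = 2.51e-10 in limma), from 3.42 ± 0.36 (n = 7) to -4.29 ± 0.94 (n = 6).

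**Figure D4:**
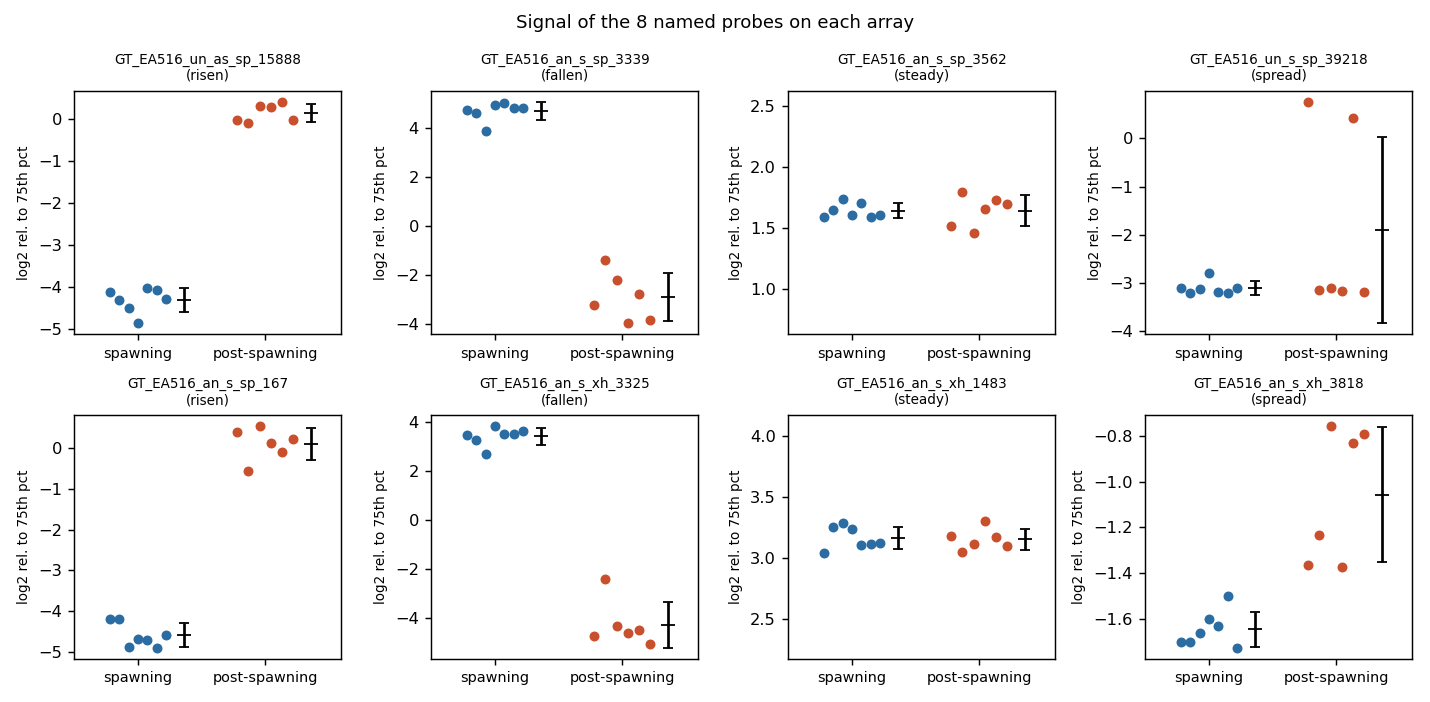
Log2 signal over the 75th percentile of its array (vertical) on each of the 7 spawning (blue) and 6 post-spawning (red) arrays for the 8 probes named in the text, with the mean and SD at the right of each group. The first and second columns show the rises and falls, the third the probes bounded closest to no change, and the fourth those with greater spread after spawning.

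Ranked by the same rule, the 20 probes with the widest gaps in each direction include the 4 named above. They were chosen for that gap on the same arrays, so that their values only describe its size. The 20 rising ones changed by 3.70 to 4.81 on the log2 scale with gaps of 3.00 to 3.91. The 20 falling ones changed by -7.92 to -5.12 with gaps of 4.16 to 5.26. The falling gaps were all above 8-fold, and the smallest rising gap, at 2.998 on the log2 scale, was just under 8-fold.

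Post-spawning replicate 2 showed the smallest departure over the large changes as a whole. Of the 323 probes that fell at least 8-fold, it was the highest of the 6 post-spawning fish for 210, and of 342 that rose at least 8-fold and were measured in every fish it was the lowest for 242. Its median change from the spawning mean was -3.58 for the falling probes, against -4.29 to -4.04 in the other 5 fish. For the rising probes it was 3.20, against 3.63 to 4.15. These probes were chosen for their change, and the counts describe how it was shared among the fish. It shared slide 3 with spawning replicates 3 and 4, whose positions on the scale above were 0.04 and -0.02. The part of the slide in the smaller departure was not tested.

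A smaller part of the testis transcripts could be bounded near no change. For 1355 probes the 95% interval of the change lay within 1.5-fold in either direction, and 397 of them were nevertheless called. Of the 1932 probes that did not pass, 958 had such an interval. For the other 974 the interval reached beyond 1.5-fold, so that these remain undecided, and for 468 of them it reached beyond 2-fold. The 2 probes bounded most closely were GT_EA516_an_s_sp_3562 and GT_EA516_an_s_xh_1483. The first had a log2 signal of 1.59 to 1.74 with a median of 1.61 in spawning and 1.46 to 1.80 with a median of 1.68 in post-spawning fish. Its 95% interval ran from -0.16 to 0.16. The second had 3.04 to 3.29 with a median of 3.12 and 3.05 to 3.30 with a median of 3.15, and its interval ran from -0.16 to 0.14. The ranges of the stages overlapped for both. These bounds hold on the 75th percentile scale, because another scale can move all probes together and can also change the error of each. With arrays centred on the median the outer bounds were 0.35 and 0.34, and with scaling to the spike-in probes they were 0.71 and 0.70. The limit of 1.5-fold is 0.585 on the log2 scale, so that neither probe met it with spike-in scaling. The counts of bounded probes were taken on the 75th percentile scale alone.

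Calls were made at every level, and the balance of rises and falls shifted with the level. When the tested probes were divided into 10 level bins of 825 probes by their mean signal over the 13 arrays, 67.8% were called in the dimmest bin and 74.4% to 80.7% from bin 3 up. Rises made up 72.3% of the calls in bin 2 and 54.4% in bin 9. Of the probes called at 8-fold or more, 84 rose and 28 fell in the dimmest bin and 2 rose and 35 fell in the brightest. The pair that rose, named after the values were seen, were GT_EA516_an_s_xh_2715, by 3.39 on the log2 scale to a mean of 4.13, and GT_EA516_an_s_sp_3573, by 3.71 to 4.18. The median SD between spawning fish went from 0.57 in the dimmest to 0.16 in the brightest bin, and that between post-spawning fish from 0.51 to 0.15, so that a change of given size was measured more precisely in bright probes.

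**Figure D5:**
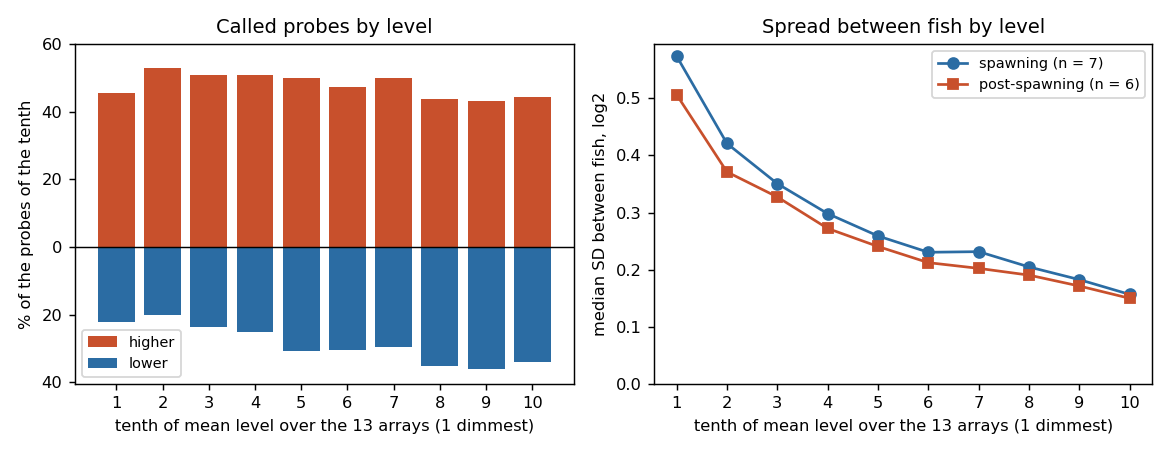
Left, percent of the probes of each of 10 bins of mean level (horizontal, 1 the dimmest) called higher (red, upward) or lower (blue, downward) in post-spawning testis. Right, median SD between fish on the log2 scale by bin for 7 spawning and 6 post-spawning fish, which falls from 0.57 and 0.51 in the dimmest bin to 0.16 and 0.15 in the brightest.

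The brightest probes were more often higher than lower after spawning. Of the 100 probes brightest over the 13 arrays, 80 were higher and 3 lower after spawning, with a median log2 change of 0.48 and a range from -1.88 to 1.13. The background over all tested probes was 47.9% higher and 28.7% lower, with a median change of 0.32. The balance depended on the scale, since median centring gave 71 higher and 5 lower and quantile normalisation gave 39 and 12, while scaling to the spike-in probes left 16 and 3 calls. The lists themselves overlapped in large part. Of the 100 brightest probes of each stage 76 were shared, as were 14 of the 20 brightest. Of the 100 brightest at spawning, 62 were higher and 20 lower after it, and of the 100 brightest after spawning 86 were higher and 0 lower. Each of these lists was chosen by the level in a stage of the same comparison, which favours falls in the spawning list and rises in the post-spawning list. The 3 lower probes among the 100 brightest over the 13 arrays, named after the values were seen, were GT_EA516_an_s_sp_1472, with a log2 change of -1.88 from the spawning mean of 6.41, GT_EA516_an_s_sp_1738, with -0.69, and GT_EA516_an_as_xh_2181, with -0.63.

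The probe identifiers hold fields whose meaning the files used here do not give, and the calls fell in all of them. Of the 6003 tested probes with an in the first field 49.6% were higher and 29.5% lower, and of the 2230 with un 43% and 26.7%. The un probes were dimmer, with a median level of -3.23 against -1.59. Those with s and as in the second field were close to each other, with 76.9% and 75.8% called. Probes with xh in the third field were called in 79.8% of cases and those with sp in 75%, against the background of 76.6%. The xh probes were also brighter, with a median level of -0.692 against -2.58. The median change was positive in each of these 6 classes, from 0.26 (un) to 0.36 (xh), except that with quantile normalisation that of un was -0.0032.

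A set of 18 probes carries names that begin with CUST, and 17 of them were tested. Of these, 11 were higher and 4 lower (64.7% and 23.5%, against 47.9% and 28.7% of all tested probes). A rise of at least 8-fold was seen for 4 of the 17, against 345 of all 8250 tested probes (4.18%). These 4, named after the values were seen, were CUST_5_PI428058183, CUST_8_PI428058183, CUST_10_PI428058183 and CUST_14_PI428058183, and the 4 lower ones were CUST_12_PI428058183, CUST_13_PI428058183, CUST_16_PI428058183 and CUST_17_PI428058183, with changes of -1.74 to -0.40. The probes CUST_5_PI428058183 and CUST_14_PI428058183 were well above background on only 3 of the 7 spawning arrays, and the other 2 that rose 8-fold on 6, so that the size of these rises rests in part on signals near background. Their genes are not given in the files used here.

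Few probes were called for a difference in spread between fish. With so few fish, a probe that was not called is not shown to have equal spread. Each fish had its own array, so that differences between fish and between arrays cannot be told apart in these values. The median SD between fish was 0.26 in spawning and 0.25 in post-spawning testis. The SD was greater after spawning for 3626 of the 8250 probes (43.95%). It was at least 2 times greater after spawning for 697 probes and at least 2 times smaller for 1169. A Levene-type test, limma on the absolute deviations from the stage mean, scaled for the number of fish, called 17 probes (0.206%), of which 4 had greater (0.0485%) and 13 smaller spread (0.158%) after spawning. At an unadjusted p under 0.05 there were 762 (9.24%), of which 350 had greater and 412 smaller spread. Among the probes that fell, 51.37% had the greater SD after spawning, and among those that rose 39.45%. The SD between fish was greater in dim probes. Median levels went from -0.71 to -2.41 for the fallen and from -2.79 to -1.42 for the risen probes. The part of the level in this contrast was not tested.

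The greatest gain in spread among well measured probes was that of GT_EA516_un_s_sp_39218. Its log2 signal was 0.76 in post-spawning replicate 1 and 0.44 in replicate 5, and between -3.19 and -3.12 in the other 4 post-spawning fish. The 7 spawning fish lay between -3.21 and -2.79, with a median of -3.13. A pair of August fish thus had a high signal, and the other 4 were at the level of the May fish. The mean absolute deviation differed by 1.73 ± 0.25 (SE, adjusted p = 0.0152 in limma), and the means of the stages did not pass the test (log2 change 1.20 ± 0.67, adjusted p = 0.117 in limma). Without replicate 1 the spread difference was 1.19 with an adjusted p of 0.358 in limma, and without replicate 5 it was 1.30 with an adjusted p of 0.341. The call was lost under 8 of 31 alternatives.

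The other called gains in spread were smaller or lay near background. GT_EA516_an_s_xh_3818 had log2 signals of -0.76, -0.83 and -0.79 in post-spawning replicates 3, 5 and 6 and of -1.37 to -1.23 in the others, against -1.73 to -1.50 in spawning fish with a median of -1.66. This call had an adjusted p of 0.0471 in limma and lost it under 28 of 31 alternatives. The remaining pair, named after their values were seen because they complete the count of 4, were GT_EA516_an_s_sp_3369 and GT_EA516_an_as_xh_1500. Both fell after spawning, from a mean log2 signal of -4.36 to -7.86 and from -3.39 to -8.15, to levels that were well above background on 3 and 2 of the 6 post-spawning arrays. Their spread calls were lost under 8 and 23 of 30 alternatives.

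The 13 probes with smaller spread after spawning had an SD between fish of 0.339 to 3.27 at spawning and of 0.0725 to 1.07 after it. The greatest loss of spread, singled out after the values were seen, was that of GT_EA516_an_s_sp_1906. Its log2 signal was 0.15, 1.06 and 0.23 in spawning replicates 2, 4 and 6 and between -6.38 and -4.71 in the other 4. The 6 post-spawning fish lay between these levels, from -2.76 to -0.48. The spread difference was -2.24 ± 0.31 (SE, adjusted p = 0.0117 in limma), and the stage means did not pass the test (adjusted p = 0.289 in limma). The spread call was lost under 8 of 31 alternatives, where the adjusted p in limma reached 0.294. Each of the 13 calls was lost under 8 to 25 alternatives, and no probe was called for smaller spread without slide 2, slide 3 or slide 4 (0 in each).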

How the data were processed

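Total RNA of the testis was labelled with Cy3 and hybridised to 1-colour Agilent arrays, per the labels' protocols. The scanner intensity (gProcessedSignal, Feature Extraction 10.7.1.1, per the file headers) is background-subtracted by that program. The authors also deposited a table of log2 values for 15171 of the 15208 non-control spots, whose column medians lay at 9.71 and made by a normalisation not given in the sources used for this work. It served as an alternative. The value of a probe was the mean over its spots of log2 intensity, less the array's 75th percentile, without the 154 outlier-flagged spots (0 were saturated). A probe was tested if it was well above background in at least 0.5 of its spots on at least 6 of the 13 arrays, which left out 791 of 9041. Stages were compared on the 13 arrays alone with limma 3.58.1 (R 4.3.3) and Benjamini-Hochberg adjustment over all tested probes, and array-level measures with exact two-sided permutation tests. The scripts were tested on simulated data.

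Groups came from the sample titles. Titles and descriptions number the replicates differently and mark separate fish, so that the numbers do not pair the stages. The named probes are the 2 risen and 2 fallen ones with the widest gap between the stages (called, well above background on all 13 arrays, same direction with each array left out), the 2 with the narrowest interval around no change and the 2 with the greatest gain in spread. The samples, lists and rules were chosen with earlier results of these data known. The gene lists that had been fixed, including cell type markers, gave no result because the files used here hold no gene names, and no sequence was used. Alternatives covered background correction, scaling, the filter on dim probes, flagged spots, slides, the replicate block, array weights, the variance model and each array left out.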

Additional observations from a re-analysis of the deposited data

Results flagged for a closer look

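In 6 of 38 groups of arrays examined over 19 measures, 1 array stood apart from the rest by more than the 95% limit of Dixon's gap test, which chance exceeds in about 1 in 20 groups. The named probes among them were chosen for their values, so that the number of such arrays cannot be read against chance.

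Post-spawning replicate 2 stood apart in 3 measures. Its position between the stages was 0.84, with the next fish at 0.9925. Its mean root mean square distance to the spawning arrays was 1.562 on the log2 scale, with the next at 1.774. Its log2 signal of GT_EA516_an_s_xh_3325 was -2.438, with the next at -4.333. Without this array 6267 probes were called, against 6318 with it.

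The other 3 arrays were spawning fish. Replicate 6 had a median correlation with the other spawning arrays of 0.9685, with the next at 0.9767. Replicate 3 had a log2 signal of 3.882 for GT_EA516_an_s_sp_3339, with the next at 4.609. Replicate 4 had -2.788 for GT_EA516_un_s_sp_39218, with the next at -3.108.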

How the results depend on the processing

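Under 31 alternatives the number of called probes ran from 4849 (spike-in scaling) to 6509 (no filter on dim probes), and the number called beyond 2-fold from 1819 to 2565, each within 1.5 times the reported count. The 4 named rises and falls stayed called with their direction in all 31. They had been chosen for wide gaps and for keeping their direction with each array left out, so that this was set in part by the choice. The share of calls that were higher was 62.5% as reported, 56.2% with median centring, 54.6% with quantile normalisation, 55.6% with spike-in scaling and 56.3% in the authors' deposited values. The number of probes called for spread was not stable. Against 17 as reported, it was 7 with normexp, 10 with quantile normalisation, 4 with spike-in scaling, 6 with no filter, 2 with probes measured on all 13 arrays, 7 with slide as a fixed and 8 with slide as a random block, 2 with the replicate block, 1 with an intensity trend, 10 with robust fitting, and 0, 1 and 0 without slides 2, 3 and 4. The cause was not tested. Leaving out 1 array gave 8 (without spawning replicate 2) to 23 (without spawning replicate 1), with 9 without post-spawning replicate 1 or spawning replicate 4. The replicate block left 6175 called probes. Correlations of same-numbered arrays ran from -0.216 to 0.221, and 0 of 6 correlated best with their own number, so that the numbers give no pairing. Dim signals limit the fold of probes near background, and of the dimmest 825 tested probes 1.70% were measured on all arrays.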
